A study of Vitis vinifera with 54 samples.

Results

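The flesh of Chardonnay berries (Vitis vinifera L.) from the ecological zone ZHYS was compared between the color transition period and the enlargement period. The libraries were chosen by the stage and the zone in their labels, which gave 6 of the 54 libraries of the series, 3 of V-ZHYS (color transition period, 80 DAP) and 3 of E-ZHYS (enlargement period, 40 DAP). DAP counts the days after early flowering, and the labels call the color transition period veraison. The whole series covers 6 zones at 3 stages with 3 biological replicates per group, and all 54 libraries entered the estimate of the spread. The change in ZHYS was also set beside that in 4 other zones (HJZ, CC, XG and XLS). All groups shared 1 cultivar, no treatment is given in the labels, and the label names the tissue as fruit. According to the methods, flesh without skin or seeds was frozen and each replicate pooled berries of uniform size. Berries were taken by calendar age, so a library averages over whatever stages of ripening its berries had reached. Vines, vineyard blocks and seasons behind the replicates were not given in the sources used here. The p-values therefore measure the spread between berry samples within the groups of the series.

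A grape berry grows in a green phase, in which its cells expand and store malic acid and tannins, and then passes veraison, the onset of ripening. At veraison the flesh softens through changes in its cell walls, hexoses accumulate in the vacuoles, malic acid begins to be respired, chlorophyll is lost, and the flesh starts to store thaumatin-like proteins and chitinases. In colored cultivars anthocyanins appear in the skin at the same time, while Chardonnay berries remain green to golden. Abscisic acid and sugars are known to promote this transition, and auxin delays it.

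Expression was measured by RNA-seq in TPM, a unit that corrects for transcript length and gives each library an equal sum, so a value is a share of that library's transcripts. A gene was called a DEG when its Benjamini-Hochberg adjusted p from limma was below 0.05 over the 24648 genes tested and its absolute log2 change was above 1. All log2 changes are V-ZHYS minus E-ZHYS of log2(TPM + 1), where the added 1 makes changes of weakly expressed genes look smaller than they are, and each is given ± its standard error (n = 3 libraries per stage). The standard error takes its spread from the replicates of all 18 groups of the series. The sequencing depth is unknown because TPM does not keep it, so the precision of a low value is known only from the spread of its replicates. In bulk flesh, fewer cells of a type and less RNA per cell cannot be told apart.

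The genes that moved made up most of the messenger pool at one stage and little of it at the other. Of the 24648 genes tested, 2563 were higher in V-ZHYS (10.4%) and 2288 were lower (9.28%), so that 4851 genes (19.7%) were called in all. The 2563 higher genes held 62.0%, 59.3% and 54.9% of the TPM of the V-ZHYS libraries, against 8.44%, 9.32% and 11.1% in the E-ZHYS libraries. The 2288 lower genes held 1.45%, 1.87% and 5.07% of the TPM in V-ZHYS, against 61.3%, 57.6% and 51.2% in E-ZHYS. The libraries of the stages did not overlap in either share, which the choice of the genes sets. The V-ZHYS libraries held 19.6% to 22.6% of their TPM in their 10 most abundant genes, against 41.2% to 50.9% in E-ZHYS, and had 14424 to 14862 genes above 1 TPM, against 15304 to 15548.

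Most changes were moderate and a few were extreme. The median absolute log2 change was 1.49 among the higher genes and 1.6 among the lower genes. Changes above 4 on the log2 scale were found for 104 higher and 153 lower genes, and changes above 6 for 27 and 43. The 3 libraries of each stage did not overlap for 2541 of the higher and 2229 of the lower genes. The thresholds of the call favor such separation, so these counts are not separate evidence. Median-of-ratios rescaling gave a median log2 change of -0.017 over the 16121 genes with a mean of at least 1 TPM, against 0.133 in TPM. Under it 2092 genes were higher (8.49%) and 2891 lower (11.7%), and the share of higher genes among the DEGs was 42% in place of 52.8%. The same call was made under both scalings for 2078 of the higher and all 2288 of the lower genes.

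**Figure D1:**
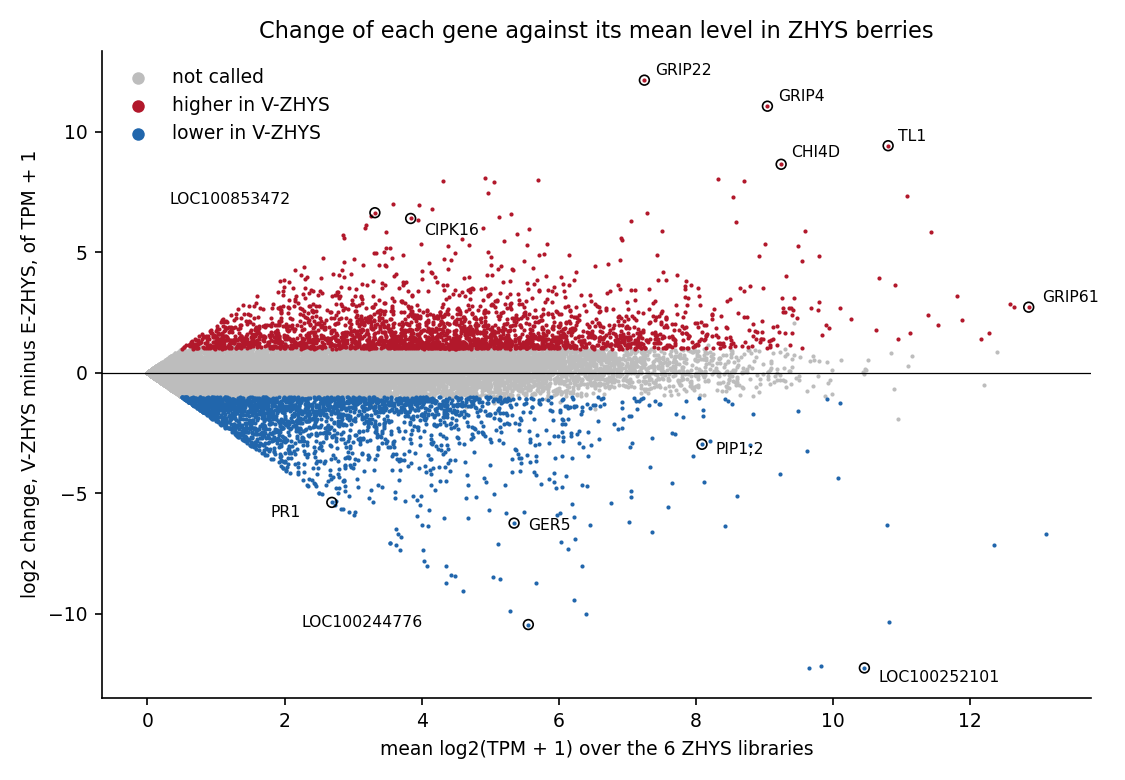
Log2 change of every gene tested (V-ZHYS minus E-ZHYS, of TPM + 1) against its mean log2(TPM + 1) over the 6 ZHYS libraries, 1 point per gene, with red for genes called higher, blue for genes called lower and grey for the rest. The 2563 higher genes reach 12.14 (GRIP22) and the 2288 lower genes reach -12.27 (LOC100241281).

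The libraries of a stage resembled each other more than those of the other stage, but V-ZHYS replicates 1 and 3 lay apart from each other. Correlations of log2(TPM + 1) within a stage were at least 0.976 in V-ZHYS and 0.99 in E-ZHYS, against 0.866 to 0.904 between the stages. In V-ZHYS replicate 3, 148 genes were at least 4-fold above both other V-ZHYS libraries, and 95 of these were DEGs lower in V-ZHYS. In V-ZHYS replicate 1, 89 genes were at least 4-fold below both other V-ZHYS libraries. Among the 195 lower genes with a mean of at least 100 TPM in E-ZHYS, a gene kept a median of 2.87%, 7.96% and 22.3% of its E-ZHYS mean in V-ZHYS replicates 1, 2 and 3. Replicate 3 was the highest of the 3 for 128 of these genes, and replicate 1 was the lowest for 133. Without replicate 3 the counts were 2589 higher and 2378 lower genes, and without replicate 1 they were 2605 and 2196. What set these replicates apart was not tested.

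**Figure D2:**
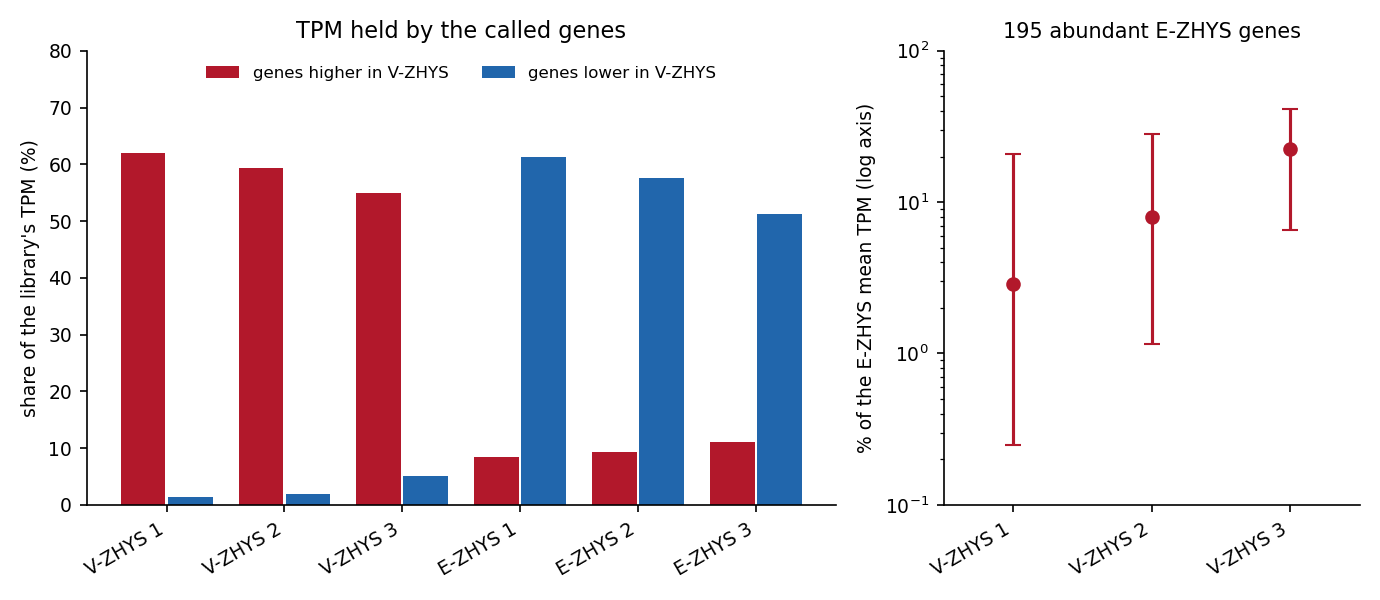
Left, share of each library's TPM (%) held by the genes called higher and lower in V-ZHYS, with the higher genes at 54.9% to 62.0% in V-ZHYS and 8.44% to 11.1% in E-ZHYS. Right, level of 195 lower genes with at least 100 TPM in E-ZHYS, as a percentage of their E-ZHYS mean on a log axis, with points for medians and bars for quartiles, where V-ZHYS replicate 3 has the highest median (22.3%).

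The largest rise was that of GRIP22, one of the grape ripening-induced proteins (GRIP), a set named for its appearance in ripening fruit. GRIP22 had 12148, 9666 and 9097 TPM in V-ZHYS, against 1.33, 0.26 and 2.92 TPM in E-ZHYS. Its log2 change was 12.14 ± 0.30 (limma, adjusted p = 7.39e-30), and the ratio of the TPM means was 6854. GRIP4 had 25669.6, 21014 and 26802 TPM in V-ZHYS, against 8.74, 8.01 and 15.8 TPM in E-ZHYS (log2 change 11.06 ± 0.27, adjusted p = 7.87e-30), a ratio of means of 2255. Every V-ZHYS library was far above every E-ZHYS library in both genes, and the rule for naming the largest rises required that the stages did not overlap. At maturity the genes parted, since M-ZHYS (maturity period, 120 DAP) had 2381 to 3138 TPM of GRIP22 and 47652 to 64975 TPM of GRIP4, below and above all V-ZHYS libraries of the same gene.

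Thaumatin-like proteins and chitinases, defense proteins of ripe berries that can form haze in wine, supplied the next largest rises. TL1, a thaumatin-like protein, was the most abundant gene of every V-ZHYS library with 52949, 44005 and 43645 TPM, against 56.7, 73.1 and 73.3 TPM in E-ZHYS (log2 change 9.42 ± 0.23). CHI4D, a class IV chitinase, had 13764, 12309 and 10528 TPM in V-ZHYS, against 23.5, 30.1 and 35.2 TPM in E-ZHYS (log2 change 8.65 ± 0.25). TL3, another thaumatin-like protein, had 22379, 21575 and 19106 TPM in V-ZHYS, against 340.4, 383 and 367 TPM in E-ZHYS (log2 change 5.85 ± 0.23). None of the 3 genes had overlapping stages, which the rule for naming the largest rises required of TL1 and CHI4D. TL1 and TL3 are neighbors on chromosome 2, and how reads that fit both were counted was not given in the sources used here, so their single values are uncertain.

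The other 6 of the 10 largest rises had log2 changes between 7.92 and 8.07. LOC100255405 had 5666, 5290.0 and 4604 TPM in V-ZHYS, against 14.6, 18.4 and 24.6 TPM in E-ZHYS. LOC100233076 had 7384, 6230.0 and 6245 TPM in V-ZHYS, against 21.7, 27.2 and 27.7 TPM in E-ZHYS. LOC100855221, LOC100243265 and LOC100251668 had 458 to 575, 274 to 355 and 419.9 to 692 TPM in V-ZHYS, against 0.3 to 1.31, 0.11 to 0.54 and 0.8 to 1.55 TPM in E-ZHYS. None of these 5 loci carries a further name in the gene table, and none had overlapping stages, which the rule for naming them required. GER7, a germin-like protein, had 143, 4628 and 847 TPM in V-ZHYS, against 3.37, 2.27 and 1.46 TPM in E-ZHYS (log2 change 7.98 ± 0.88). Its V-ZHYS libraries were far apart, with replicate 2 at the top, yet the lowest of them was above every E-ZHYS library. The 5 most abundant genes of V-ZHYS were TL1, GRIP4, TL3, ID100242737, which the file lists without a symbol (25318 to 30464 TPM in V-ZHYS, against 156 to 191 TPM in E-ZHYS), and GRIP61 (17905 to 20926 TPM in V-ZHYS, against 2271 to 4100.3 TPM in E-ZHYS).

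The falls were as steep and concerned a few extremely abundant transcripts. LOC100252101 had 3.26, 21.6 and 83.3 TPM in V-ZHYS, against 118544, 99642 and 79608 TPM in E-ZHYS (log2 change -12.25 ± 0.57, adjusted p = 5.07e-21). LOC100241281 had 1.38, 11.2 and 50.4 TPM in V-ZHYS, against 63672, 53734 and 53137 TPM in E-ZHYS (log2 change -12.27 ± 0.66). LOC100246409 had 1.26, 10.4 and 90.6 TPM in V-ZHYS, against 68465, 59744 and 56303 TPM in E-ZHYS (log2 change -12.17 ± 0.70). In each of the 3 genes V-ZHYS replicate 1 was lowest and replicate 3 highest. The stages did not overlap, which the rule for naming the largest falls required. LOC100241281 and LOC100246409 are neighbors on chromosome 7, in a row of 4 adjacent genes that were all lower in V-ZHYS.

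LOC100240860, another of the 5 most abundant genes of E-ZHYS, had 4.81, 50.6 and 402 TPM in V-ZHYS, against 70064, 67907 and 57466 TPM in E-ZHYS (log2 change -10.36 ± 0.83). LOC100266074 had 72.2, 664 and 13375 TPM in V-ZHYS, against 93659.7, 91876 and 81934 TPM in E-ZHYS (log2 change -6.68 ± 1.09, adjusted p = 1.31e-06). LOC100255900 had 34.9, 579 and 3953 TPM in V-ZHYS, against 67361, 72166 and 48101 TPM in E-ZHYS (log2 change -7.15 ± 0.99). The stages did not overlap in these 3 genes, which the rule for naming the largest falls required of LOC100240860. V-ZHYS replicate 3 was again the highest V-ZHYS library in each.

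**Figure D3:**
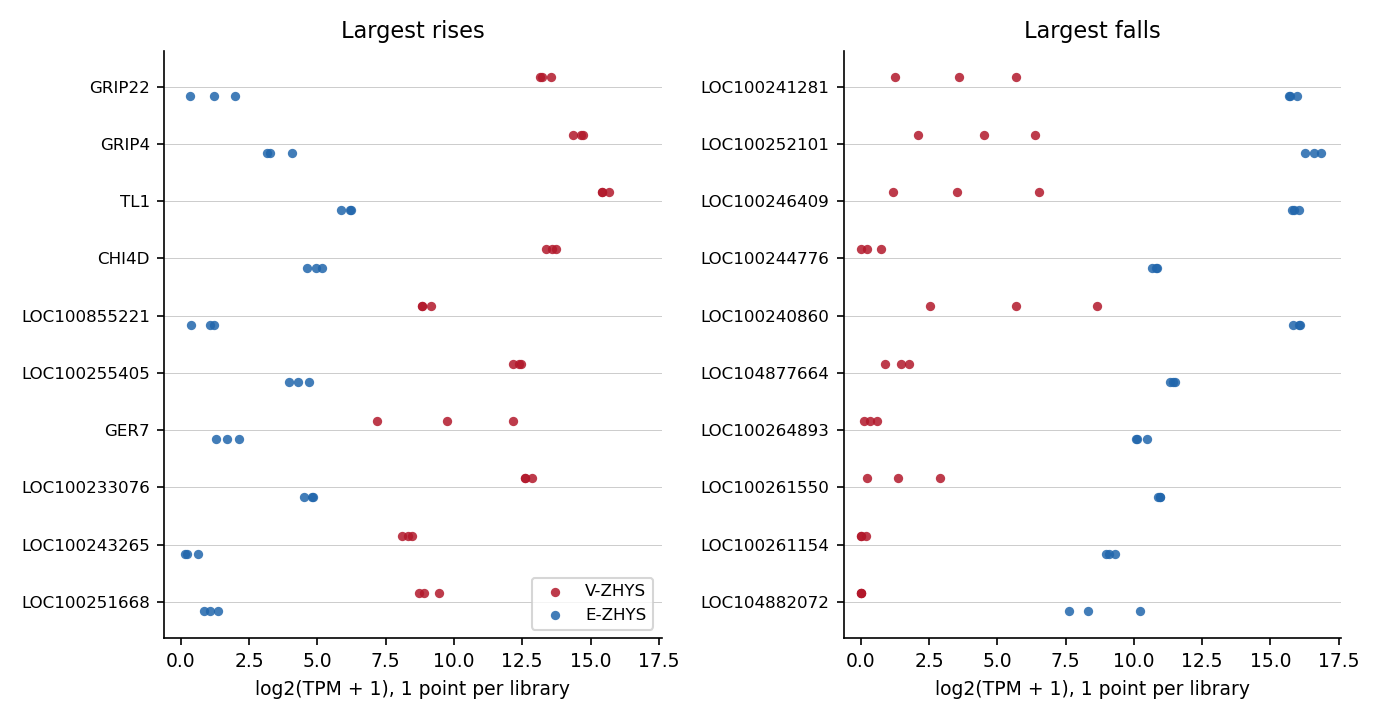
Log2(TPM + 1) of the 10 largest rises and the 10 largest falls, 1 point per library, with V-ZHYS above E-ZHYS in each row. The stages do not overlap for any of the 20 genes, which the rule for naming them required, and the V-ZHYS libraries of GER7 run from 143 to 4628 TPM and those of LOC100240860 from 4.81 to 402 TPM.

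Other large falls ended near or at 0. LOC100244776 had 0, 0.17 and 0.69 TPM in V-ZHYS, against 1631, 1839.9 and 1815 TPM in E-ZHYS (log2 change -10.45 ± 0.31). LOC100261154 had 0, 0.14 and 0 TPM in V-ZHYS, against 638, 548 and 507 TPM in E-ZHYS (log2 change -9.07 ± 0.15). LOC104882072 was listed at 0 in all 3 V-ZHYS libraries, against 319, 195 and 1201 TPM in E-ZHYS. For these 3 genes nearly nothing was left at color transition, and M-ZHYS stayed at or below 1.09 TPM. LOC104877664 had 0.87 to 2.44 TPM in V-ZHYS, against 2547 to 2877 TPM in E-ZHYS, LOC100264893 had 0.08 to 0.53 TPM in V-ZHYS, against 1091 to 1417 TPM in E-ZHYS, and LOC100261550 had 0.17 to 6.54 TPM in V-ZHYS, against 1898 to 1996 TPM in E-ZHYS. None of the 10 largest falls carries a further name in the gene table, so their roles are not described here. In all, 21 lower genes with a mean above 10 TPM in E-ZHYS were listed at 0 in every V-ZHYS library. Conversely, 3 higher genes with a mean above 10 TPM in V-ZHYS were listed at 0 in every E-ZHYS library, LOC100853472, LOC100232838 and LOC100265151, of which the last pair was named after its values were seen.

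All 11 GRIP members tested were higher in V-ZHYS, against 10.4% of all genes, and their median log2 change was 2.72, against 0 over all genes tested. The set was named for its induction in ripening grapes, so its direction is not independent evidence. Quantile normalization, which gives every library the same distribution of values, left 10 of the 11 called, without GRIP58 (log2 change 0.95), named after its values were seen. The smallest change among them was 1.54, and their summed level was 72778 to 85733 TPM in V-ZHYS, against 4709 to 7866 TPM in E-ZHYS. GRIP28, which carries the name PMEI for an inhibitor of pectin methylesterase, had 4932, 4326 and 4071 TPM in V-ZHYS, against 108, 103 and 138 TPM in E-ZHYS (log2 change 5.25 ± 0.17). The shares of all genes, 10.4% higher and 9.28% lower, are also the background for the counts of the other lists. GRIP28 is also 1 of 5 cell wall proteins, of which 4 were higher and 0 lower, with a median log2 change of 4.53. PL1, a pectate lyase that cleaves the pectin of the wall, had 329.6, 264 and 278 TPM in V-ZHYS, against 6.12, 6.48 and 6.68 TPM in E-ZHYS (log2 change 5.29 ± 0.48). Neither gene had overlapping stages, and M-ZHYS averaged 4319 TPM of GRIP28 and 55.8 TPM of PL1.

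Of 5 genes of aroma formation, 4 were higher and 0 lower in V-ZHYS (median log2 change 1.71). Alcohol dehydrogenases interconvert aldehydes and alcohols of the berry aroma. ADH2 had 1856, 1653 and 1629.6 TPM in V-ZHYS, against 139.7, 128 and 179 TPM in E-ZHYS (log2 change 3.53 ± 0.15). ADH1 had 385, 342 and 319.5 TPM in V-ZHYS, against 29, 30.6 and 37.2 TPM in E-ZHYS (log2 change 3.40 ± 0.36). The stages were apart in both, and M-ZHYS averaged 1728 TPM of ADH2 and 40.9 TPM of ADH1.

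Among defense-related proteins the direction differed between genes. Of 9 thaumatin-like proteins, chitinases and glucanases, 5 were higher and 1 was lower (median log2 change 1.03), or 4 and 1 after median-of-ratios rescaling, and their summed level was 73601 to 89485 TPM in V-ZHYS, against 573 to 655 TPM in E-ZHYS. The lower member, CHIT3, a chitinase, had 0.07, 0.15 and 0.15 TPM in V-ZHYS, against 9.99, 11.3 and 6.26 TPM in E-ZHYS. Of 10 small pathogenesis-related proteins of the PR-1 and PR-10 kind, 3 were higher and 1 was lower (median -0.02). PR10.3 had 2682, 3010.1 and 2074 TPM in V-ZHYS, against 135, 147 and 189.7 TPM in E-ZHYS (log2 change 4.03 ± 0.43). PR10.2 had 4279, 4499.6 and 3153 TPM in V-ZHYS, against 1087, 1214 and 1481 TPM in E-ZHYS (log2 change 1.65 ± 0.22). PR1 was listed at 0 in all 3 V-ZHYS libraries, against 36.2, 38.9 and 47.7 TPM in E-ZHYS. PR10.3 thus rose while PR1 fell, with no overlap of the stages, and the call of PR10.2 was lost after quantile normalization (log2 change 0.63).

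Of 7 germin-like proteins, 1 was higher and 2 were lower (median log2 change -0.06). GER5 had 2.38, 4.27 and 4.75 TPM in V-ZHYS, against 326, 379 and 357 TPM in E-ZHYS (log2 change -6.24 ± 0.32). GER1 was listed at 0 in V-ZHYS, against 1.03 to 3.45 TPM in E-ZHYS, and its call was lost without E-ZHYS replicate 3. With GER7 higher, the family held large changes in both directions. Of 7 MLO membrane proteins, known for their part in powdery mildew susceptibility, 2 were higher and 0 lower (median 0.37), MLO5 (40.9 to 48.9 TPM in V-ZHYS, against 10.7 to 15.2 TPM in E-ZHYS) and MLO6 (8.97 to 11.8 TPM in V-ZHYS, against 1.85 to 2.66 TPM in E-ZHYS).

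The water channels held calls in both directions. Of 11 aquaporins, 5 were higher and 3 lower in V-ZHYS, against 10.4% and 9.28% of all genes, with a median log2 change of 0.85. After quantile normalization 3 were higher, and the call of PIP1;3 was among those lost (log2 change 0.83). PIP2;1, of the plasma membrane, had 2746, 2482 and 2191 TPM in V-ZHYS, against 331, 307 and 325 TPM in E-ZHYS (log2 change 2.94 ± 0.14). PIP1;3 had 2662 to 3236 TPM in V-ZHYS, against 788 to 948 TPM in E-ZHYS, and had the highest mean TPM of the list at both stages. TIP1;1, of the vacuolar membrane, had 131 to 167 TPM in V-ZHYS, against 29.4 to 35.4 TPM in E-ZHYS. In contrast, PIP1;2 had 98.2, 87.6 and 103 TPM in V-ZHYS, against 839.9, 712 and 737 TPM in E-ZHYS (log2 change -2.97 ± 0.08). PIP1;1 had 3.23, 3.23 and 6.97 TPM in V-ZHYS, against 66.7, 81 and 85.7 TPM in E-ZHYS (log2 change -3.91 ± 0.23). The stages did not overlap for these 5 genes, and the summed level of the list was 5835 to 7009 TPM in V-ZHYS, against 2261 to 2527 TPM in E-ZHYS.

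Of 26 sugar transporters, 4 were higher and 2 lower in V-ZHYS, against 10.4% and 9.28% of all genes (median log2 change 0.00), and 12 stayed below 1 TPM in all 6 libraries. HT6, which carries the name TMT1 for a transporter that loads monosaccharides into the vacuole, had 179, 146 and 137 TPM in V-ZHYS, against 18.9, 19.2 and 19.2 TPM in E-ZHYS (log2 change 2.94 ± 0.11). HT5, a hexose transporter, had 35, 369.9 and 175 TPM in V-ZHYS, against 36, 16.7 and 22.1 TPM in E-ZHYS (log2 change 2.43 ± 0.53). The stages were apart for HT6 and overlapped for HT5, whose V-ZHYS replicate 1 lay below E-ZHYS replicate 1. VVSUC27, a sucrose transporter, had 22.5, 20.2 and 28.5 TPM in V-ZHYS, against 138, 101 and 147 TPM in E-ZHYS (log2 change -2.39 ± 0.26). LOC100243643, named SWEET15, of a family of sugar exporters, had 82.4, 67.7 and 65.1 TPM in V-ZHYS, against 191, 168 and 253 TPM in E-ZHYS, and averaged 679 TPM in M-ZHYS, above both earlier stages. Its call was lost without E-ZHYS replicate 3.

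Of 3 invertases and hexokinases, 2 were higher and 0 lower (median log2 change 1.12). HXK2, a hexokinase, had 11, 8.6 and 8.55 TPM in V-ZHYS, against 2.92, 2.03 and 3.96 TPM in E-ZHYS (log2 change 1.41 ± 0.15). CWINV, a cell wall invertase that splits sucrose, had 11.1, 12.4 and 12.6 TPM in V-ZHYS, against 4.7, 4.26 and 6.18 TPM in E-ZHYS (log2 change 1.12 ± 0.43, adjusted p = 0.0259). The stages did not overlap for either, but the call of CWINV was lost after median-of-ratios rescaling (log2 change 0.98), with the replicate number as a block (adjusted p = 0.0508), and without E-ZHYS replicate 1 or 2 or V-ZHYS replicate 2 or 3 (adjusted p = 0.0586 to 0.0776).

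Of 5 genes of organic acid metabolism and the vacuolar proton pump, 3 were higher and 0 lower (median log2 change 1.49). NADP-ME, a malic enzyme, which converts malate to pyruvate, had 318, 287 and 302 TPM in V-ZHYS, against 55.5, 55.3 and 64.3 TPM in E-ZHYS (log2 change 2.36 ± 0.12). VPP2, a proton-pumping pyrophosphatase of the vacuole, had 36, 29.7 and 29.4 TPM in V-ZHYS, against 10.7, 7.02 and 7.38 TPM in E-ZHYS. LOC100251492, named 2KGR, for a reductase of the route to tartaric acid, had 325, 346 and 309 TPM in V-ZHYS, against 106, 113 and 131 TPM in E-ZHYS. All 3 had stages that did not overlap, and the call of 2KGR was lost after quantile normalization (log2 change 0.91). In the list, 1 gene was lower after median-of-ratios rescaling.

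Of 12 genes of nitrogen and amino acid metabolism, 6 were higher and 2 lower (median log2 change 1.02). METK3, an S-adenosylmethionine synthetase, had 449, 385 and 365 TPM in V-ZHYS, against 49.5, 64 and 74.9 TPM in E-ZHYS (log2 change 2.66 ± 0.26), and METK2 of the same family 1523 to 1673 TPM in V-ZHYS, against 517 to 538 TPM in E-ZHYS. METK5 had 24.6 to 33 TPM in V-ZHYS, against 54.7 to 67.9 TPM in E-ZHYS, so members of 1 enzyme family were called in both directions. After quantile normalization 3 genes of the list were higher, and METK2 was no longer called (log2 change 0.89). The call of METK5 was lost without V-ZHYS replicate 3 or E-ZHYS replicate 3. GS, a glutamine synthetase, had 339 to 427 TPM in V-ZHYS, against 80.4 to 118 TPM in E-ZHYS, and GDHB, a glutamate dehydrogenase, had 2.97 to 4.13 TPM in V-ZHYS, against 20.5 to 25.7 TPM in E-ZHYS.

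The calls among kinases that pair with calcineurin B-like calcium sensors had 1 direction. Of 18 CBL-interacting kinases (CIPK), 8 were higher and 0 lower, against 10.4% and 9.28% of all genes (median log2 change 0.92). CIPK16 had 149.5, 120.3 and 124 TPM in V-ZHYS, against 0.39, 0.63 and 0.66 TPM in E-ZHYS (log2 change 6.40 ± 0.28, adjusted p = 3.31e-22). CIPK20 had 191, 170.3 and 169 TPM in V-ZHYS, against 3.23, 5.01 and 5.52 TPM in E-ZHYS (log2 change 5.02 ± 0.16). CIPK03 had 2005, 1689.8 and 1653 TPM in V-ZHYS, against 169, 197 and 269 TPM in E-ZHYS (log2 change 3.09 ± 0.13). The stages did not overlap for these kinases, and M-ZHYS averaged 4.63 TPM of CIPK16, 186 TPM of CIPK20 and 583 TPM of CIPK03. Of the 8 sensors (CBL), 0 were higher and 1 was lower (median 0.19), CBL04, at 0.65 to 1.08 TPM in V-ZHYS, against 2.29 to 3.45 TPM in E-ZHYS. The call of CBL04 was lost after quantile normalization (log2 change -0.87), without E-ZHYS replicate 3 (-0.93) and without V-ZHYS replicate 2 (-0.99).

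Of 5 abscisic acid genes, 0 were higher and 2 lower (median log2 change -0.36). NCED1, of the enzyme family that makes the precursor of abscisic acid, had 7.27, 7.55 and 8.26 TPM in V-ZHYS, against 26.7, 19.3 and 21.5 TPM in E-ZHYS (log2 change -1.42 ± 0.36, adjusted p = 0.000874). RD22-C had 0.42 to 0.61 TPM in V-ZHYS, against 4.9 to 9.16 TPM in E-ZHYS. LOC100232959, named DHN1 for a dehydrin, was not called, with 125, 1303 and 3522 TPM in V-ZHYS, against 601, 651 and 428 TPM in E-ZHYS (log2 change 0.59 ± 0.66). Its V-ZHYS libraries lay on both sides of the E-ZHYS libraries, and without V-ZHYS replicate 1 it was called higher (log2 change 1.96, adjusted p = 0.0029). Without that library RD22-B, named after its values were seen, was also called higher (log2 change 1.62, adjusted p = 0.0435 from limma).

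Of 8 genes of ethylene, auxin, brassinosteroids and jasmonate, 2 were higher and 0 lower (median log2 change 0.57). LOXA, a lipoxygenase, had 145 to 186 TPM in V-ZHYS, against 47.8 to 69.5 TPM in E-ZHYS. Its call was lost after quantile normalization (log2 change 0.94). Of 5 gibberellin genes, 0 were higher and 1 was lower (median -0.61), LOC100258946, named GA2ox6 for an enzyme that inactivates gibberellins (1.84 to 2.28 TPM in V-ZHYS, against 3.6 to 8.89 TPM in E-ZHYS). Of 3 cytokinin phosphotransfer genes, 0 were higher and 1 was lower (median -0.27), HP3 (7.91 to 13 TPM in V-ZHYS, against 20.4 to 33.2 TPM in E-ZHYS). The call of GA2ox6 was lost without E-ZHYS replicate 3 (log2 change -0.92) and that of HP3 without V-ZHYS replicate 3 (log2 change -0.99).

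Of 9 carotenoid genes, 3 were higher and 0 lower (median log2 change 0.17), and carotenoid cleavage dioxygenases, which release aroma compounds from carotenoids, were among them. LOC100252859, named CCD4b, had 109, 88.4 and 90.2 TPM in V-ZHYS, against 7.39, 8.25 and 7.67 TPM in E-ZHYS (log2 change 3.46 ± 0.17). CCD1 had 277, 249 and 223 TPM in V-ZHYS, against 68.2, 72.5 and 98.6 TPM in E-ZHYS (log2 change 1.65 ± 0.13). The stages did not overlap for either.

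The phenylpropanoid and flavonoid list held 2 higher and 4 lower enzymes of 21 (median log2 change -0.14), and 6 were lower after rescaling. LAR2, a leucoanthocyanidin reductase of tannin synthesis, had 18.2, 31.5 and 28.4 TPM in V-ZHYS, against 147, 206 and 153 TPM in E-ZHYS (log2 change -2.67 ± 0.36). LOC100233087, named CCOAOMT for a methyltransferase of the lignin route, had 1.88 to 2.21 TPM in V-ZHYS, against 19.2 to 28.9 TPM in E-ZHYS (log2 change -2.94 ± 0.25). LDOX, which makes anthocyanidins, precursors of anthocyanins and tannins, had 268, 236 and 234 TPM in V-ZHYS, against 31.3, 30.8 and 43.6 TPM in E-ZHYS (log2 change 2.78 ± 0.17). Enzymes of 1 pathway were thus called in both directions, without overlap of the stages. VINST1, a stilbene synthase, had 14.9, 22.2 and 18.6 TPM in V-ZHYS, against 5.0, 2.53 and 5.5 TPM in E-ZHYS (log2 change 1.91 ± 0.72, adjusted p = 0.0227), and its call was lost without V-ZHYS replicate 2 or E-ZHYS replicate 2. Stilbene synthases are a family of near-identical copies, so this value is uncertain. UFGT, the last step to stable anthocyanins, was at or below 0.18 TPM in all 6 libraries and was named after its values were seen.

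Among 15 regulators of these pathways, 2 were higher and 1 lower (median log2 change 0.07). MYBPA1, an activator of tannin synthesis, had 10.6, 14.2 and 9.47 TPM in V-ZHYS, against 58.1, 97.4 and 95 TPM in E-ZHYS (log2 change -2.75 ± 0.24). LOC100853472, which carries the names mybA, MybA1 and MybA3 of regulators of berry color, had 111, 118 and 72.6 TPM in V-ZHYS and was listed at 0 in all 3 E-ZHYS libraries, and M-ZHYS had 309 to 374 TPM. Near-identical relatives can share reads with this locus, so its value may stand for more than 1 gene. WDR1, a WD-repeat partner of flavonoid regulators, had 33 to 35 TPM in V-ZHYS, against 12.2 to 15 TPM in E-ZHYS. MYB14, an activator of stilbene synthases, was not called (62.5 to 74.3 TPM in V-ZHYS, against 34.1 to 49.6 TPM in E-ZHYS, log2 change 0.68 ± 0.27).

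Of 18 MADS-box and flowering regulators tested, 4 were higher and 3 lower (median log2 change -0.19). MADS4, also named VviSEP3, a SEPALLATA-type factor, had 1174, 1049 and 969.8 TPM in V-ZHYS, against 284, 299 and 428 TPM in E-ZHYS (log2 change 1.68 ± 0.12). AP2 had 489 to 535 TPM in V-ZHYS, against 101 to 142 TPM in E-ZHYS. MADS5, also named AGL11, a factor of seed development, had 27.1, 358 and 132 TPM in V-ZHYS, against 628, 944 and 834 TPM in E-ZHYS (log2 change -2.84 ± 0.65). VFUL-L, a FRUITFULL-type factor, had 1.23 to 2.1 TPM in V-ZHYS, against 9.5 to 15.7 TPM in E-ZHYS. The stages were apart for all of these, although V-ZHYS replicate 1 of MADS5 was far below the other V-ZHYS libraries.

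Of 5 photosynthesis genes, 0 were higher and 2 lower (median log2 change -0.87). CHLH, a subunit of the magnesium chelatase of chlorophyll synthesis, had 1.56, 1.48 and 2.02 TPM in V-ZHYS, against 22, 16.2 and 19.7 TPM in E-ZHYS (log2 change -2.91 ± 0.12), and NDHM, of the chloroplast NDH complex, had 1.11 to 1.26 TPM in V-ZHYS, against 2.82 to 4.91 TPM in E-ZHYS. The call of NDHM was lost without E-ZHYS replicate 3 and after quantile normalization (log2 change -0.85 and -0.88). Of 12 genes of oxidative stress, 2 were higher and 1 lower (median 0.35). LOC100250566, named Trxh for a thioredoxin, had 2939 to 3412 TPM in V-ZHYS, against 1043 to 1392 TPM in E-ZHYS, AOX2, an alternative oxidase, had 48.5 to 59.2 TPM in V-ZHYS, against 15.5 to 22.9 TPM in E-ZHYS, and PPO, a polyphenol oxidase, had 7.0 to 8.72 TPM in V-ZHYS, against 19 to 27.4 TPM in E-ZHYS. The call of Trxh was lost after quantile normalization (log2 change 0.50).

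Of 5 genes of the heat and cold response, 1 was higher and 2 were lower (median log2 change -0.21). LOC100245740, named HsfA2 for a heat shock factor, had 1.16, 2.44 and 5.95 TPM in V-ZHYS, against 0.22, 0.6 and 0.63 TPM in E-ZHYS, and its call was lost without V-ZHYS replicate 3 (log2 change 0.89). LOC100263033, named BiP for a chaperone, had 1.92, 4.55 and 29 TPM in V-ZHYS, against 23.2, 17.7 and 20.2 TPM in E-ZHYS, with replicate 3 of V-ZHYS above every E-ZHYS library, and its call was lost without V-ZHYS replicate 1 (log2 change -0.72) and in a fit of the 6 libraries (adjusted p = 0.173 from limma). CBF4, a cold response factor, had 1.64 to 1.85 TPM in V-ZHYS, against 5.08 to 8.46 TPM in E-ZHYS. Of 7 copper transporters 0 were higher and 1 was lower (median 0.00), CTR3, with 0.36, 3.69 and 2.63 TPM in V-ZHYS, against 18.3, 19.8 and 19.4 TPM in E-ZHYS. Of 7 ion transport genes 1 was higher and 0 were lower (median 0.39), VVYS1, with 114 to 138 TPM in V-ZHYS, against 42.6 to 58 TPM in E-ZHYS. The call of VVYS1 was lost after quantile normalization (log2 change 0.86).

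**Figure D4:**
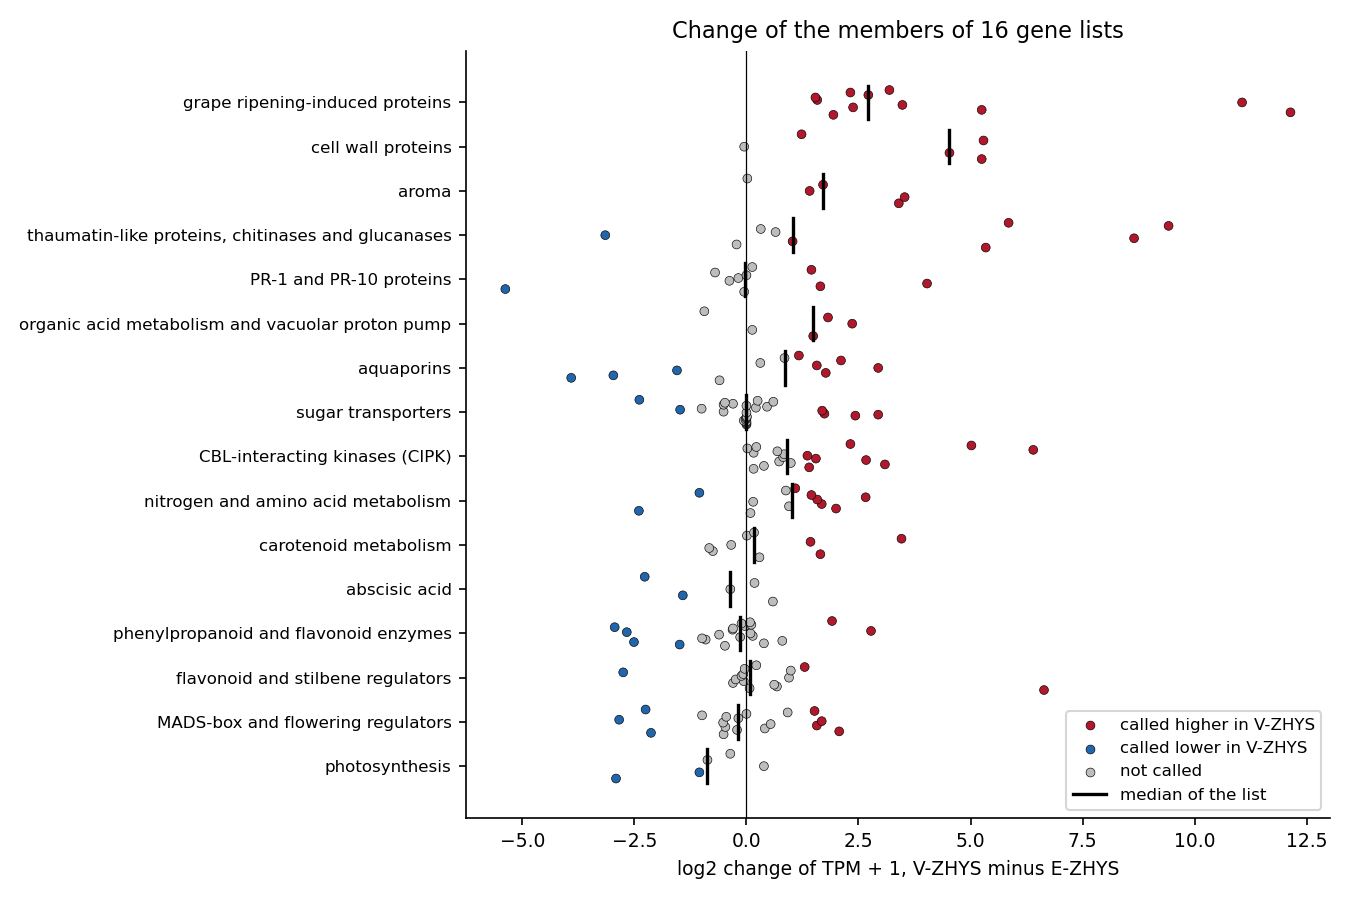
Log2 change of TPM + 1 (V-ZHYS minus E-ZHYS) of each member of 16 gene lists, 1 point per gene, colored by its call, with a bar at the median of the list. The GRIP members lie between 1.54 and 12.14, the cell wall list has a median of 4.53, and the aquaporins and the phenylpropanoid enzymes hold members called in both directions.

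The description of the samples as flesh, given in the methods, was set beside marker genes of other tissues. The 3 Casparian strip genes stayed at or below 0.72 TPM in every library (median log2 change 0.08). Of 3 flower genes, 1 was higher and 0 were lower (median -0.21), TM6, with 307 to 381 TPM in V-ZHYS, against 98.9 to 163 TPM in E-ZHYS, while AP3 and MADS9, named after their values were seen, stayed at or below 1.02 TPM. The call of TM6 was lost after quantile normalization (log2 change 0.94). Of 4 seed genes, 0 were higher and 2 lower (median -1.87), MADS5 and MYBPA1, and their summed level was 162 to 3664 TPM in V-ZHYS, against 1288 to 1694 TPM in E-ZHYS, the highest with DHN1 in V-ZHYS replicate 3. Of 2 guard cell genes, 0 were higher and 1 was lower (median -0.32), MYB60 (4.05 to 4.86 TPM in V-ZHYS, against 6.69 to 12.1 TPM in E-ZHYS), a call lost without V-ZHYS replicate 3 or E-ZHYS replicate 1 or 3. Of 5 genes of skin triterpenoids and color, 2 were higher and 0 lower (median -0.06), LOC100853472 and CYP716A15 (13.1 to 14.1 TPM in V-ZHYS, against 2.16 to 4.88 TPM in E-ZHYS). The summed skin list was 85.7 to 132 TPM in V-ZHYS, against 3.39 to 5.49 TPM in E-ZHYS. Flesh can express several of these genes itself, and the part of traces of skin or seed in the results was not tested.

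In the gene order of the RefSeq table, the next gene was called in the same direction for 749 of 4654 called protein-coding genes with a next gene (16.1%), while 10.9% of the placed protein-coding genes were higher and 9.71% lower. Rows of at least 4 adjacent genes called in 1 direction numbered 29, of which 17 were higher and 12 lower. The longest was a row of 7 genes on chromosome 5, with PR10.2, PR10.3, LOC100256795, LOC100251668 and other loci without a further name. Its members had log2 changes of 1.65 to 7.92 and summed to 8557 TPM in V-ZHYS, against 1443 TPM in E-ZHYS. Copies in such a row can share reads, so the values of single members are uncertain. A row of 4 on chromosome 2 held TL3 and TL1, and a row of 4 on chromosome 6 began with GRIP22. The share of DEGs was 20.6% among 22617 protein-coding genes, 6.33% among 79 long non-coding RNAs and 10.1% among 1787 IDs without an entry in the table.

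The change in ZHYS was then set beside that in HJZ, CC, XG and XLS. HSB was left out because few of its genes were called between the same stages (2.81% higher and 0.957% lower). Across the 16121 genes with a mean of at least 1 TPM, the log2 change in ZHYS and the mean change of the 4 zones had a Pearson r of 0.794, and r with single zones was 0.73 for HJZ, 0.716 for CC, 0.745 for XG and 0.747 for XLS. These values are across genes of 1 table, and genes are not independent replicates. Of the 2563 genes higher in V-ZHYS, 501 (19.5%) were called higher in all 4 zones and 557 in none, and of the 2288 lower genes 919 (40.2%) were called lower in all 4 zones and 318 in none. The shares of all genes called in all 4 zones or in none were not computed. These counts therefore have no background, and 19.5% and 40.2% cannot be compared with each other. Of the higher genes, 68.3% were called higher in HJZ, 35% in CC, 47.1% in XG and 36.1% in XLS, where 17.1%, 5.76%, 8.56% and 6.21% of all genes were higher. Of the lower genes, 52.8% were called lower in HJZ, 72.8% in CC, 57.1% in XG and 72.3% in XLS, where 7.02%, 18.3%, 8.51% and 13% of all genes were lower.

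The difference between the change in ZHYS and the mean change of the 4 zones was itself called for 2488 genes (10.1%), higher in ZHYS for 1472 (5.97%) and lower in ZHYS for 1016 (4.12%). After median-of-ratios rescaling the split was 1035 higher (4.2%) and 1498 lower (6.08%), with 1033 and 1016 genes called the same way under both scalings, so which direction prevailed turned on the scaling. Of the 557 higher genes that were called higher in none of the 4 zones, the difference was called for 370, and of the 318 lower genes for 218. These genes were picked by their calls in the same fit, which favors a called difference, so these counts are not separate evidence. The rest of these genes were not shown to differ between ZHYS and the 4 zones.

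Several of the large rises were steeper in ZHYS than in the mean of the 4 zones. These rises were named for their size in ZHYS, which favors such a difference. GRIP22 changed by 3.51 ± 0.34 more on the log2 scale in ZHYS than in the mean of the 4 zones (limma, adjusted p = 3.15e-11). It averaged 10304 TPM in V-ZHYS, against 3062 to 7628 TPM in the V groups of the 4 zones, and 1.5 TPM in E-ZHYS, against 3.08 to 53.2 TPM in their E groups. TL1 changed by 3.51 ± 0.26 more, with 46866 TPM in V-ZHYS, against 16610.0 to 35102 TPM in the V groups of the 4 zones, and 67.7 TPM in E-ZHYS, against 283 to 690.0 TPM in their E groups. ZHYS therefore lay above these 4 zones at color transition and below them at enlargement for both genes. In HSB, outside this comparison, TL1 averaged 10.1 TPM at enlargement, below E-ZHYS, and had a log2 change of 8.76. GRIP22 averaged 96.6 TPM in E-HSB and had a log2 change of 2.74 in that zone. CHI4D changed by 3.29 ± 0.28 more, with a V-ZHYS mean of 12200.0 TPM within the 7343 to 16511 TPM of the 4 zones and an E-ZHYS mean of 29.6 TPM below their 121 to 383 TPM. CIPK16 changed by 4.70 ± 0.31 more and PL1 by 4.22 ± 0.54 more. GRIP61 had a difference of -1.93 ± 0.24, with 2978 TPM in E-ZHYS, above the 380.0 to 1905 TPM of the E groups of the 4 zones. For the falls of LOC100252101, LOC100241281 and LOC100246409 the difference from the 4 zones did not pass the test (-0.71 ± 0.64, -1.19 ± 0.74 and -1.01 ± 0.78). Nor did it for LOC104877664, LOC100264893 and LOC104882072. The fall was called steeper in ZHYS for LOC100240860 (-2.7 ± 0.93), LOC100261550 (-1.78 ± 0.59), LOC100261154 (-1.26 ± 0.16) and LOC100244776 (-1.01 ± 0.35). All these falls were named for their size in ZHYS. The differences of LOC100240860, LOC100261550 and LOC100244776 were no longer called without V-ZHYS replicate 1.

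Some genes rose in ZHYS with a far lower mean change in the 4 zones. LOC100243664 had 2944, 2378 and 2450.1 TPM in V-ZHYS, against 84, 90.3 and 92.7 TPM in E-ZHYS, while the 4 zones averaged 275 to 774 TPM at color transition and 344 to 1100.0 TPM at enlargement (difference 5.58 ± 0.37, adjusted p = 1.69e-15). LOC104879540 had 158, 141 and 158 TPM in V-ZHYS, against 6.5, 6.89 and 7.0 TPM in E-ZHYS, with a difference of 5.13 ± 0.17. Among the 4 zones LOC104879540 was called higher in HJZ (log2 change 1.19). ID104879541, which the file lists without a symbol, had similar values (165 to 187 TPM in V-ZHYS, against 7.13 to 9.6 TPM in E-ZHYS) and a difference of 5.02 ± 0.18. These 3 genes had close replicates and no overlap of the stages in ZHYS. LOC100242002 had 32, 22.2 and 22 TPM in V-ZHYS, against 0.99, 1.06 and 1.88 TPM in E-ZHYS, and its mean log2 change in the 4 zones was -3.0 (difference 6.52 ± 0.40). LOC100256795, of the row of 7 on chromosome 5, had 364, 598 and 323 TPM in V-ZHYS, against 1.81, 1.04 and 1.37 TPM in E-ZHYS (difference 5.47 ± 0.89), but its change in single zones ran between -2.76 in HJZ and 7.49 in CC. ID100852449 had the largest difference, 6.62 ± 0.57, at only 7.91, 0.87 and 28.5 TPM in V-ZHYS, against 0.11, 0 and 0.66 TPM in E-ZHYS. It fell in the 4 zones, with log2 changes between -4.85 and -3.17. Their E means were 10.9 to 44.8 TPM and their V means at most 0.95 TPM.

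Other genes fell in ZHYS with a higher mean change in the 4 zones. The gene listed as WKRY had 10.3, 10.4 and 14 TPM in V-ZHYS, against 45.6, 35.9 and 39.5 TPM in E-ZHYS, whereas the 4 zones averaged 12.9 to 38.1 TPM at color transition and 2.81 to 6.6 TPM at enlargement (difference -3.98 ± 0.19, adjusted p = 2.49e-19). LOC100263939 had 0.18, 0.06 and 0.18 TPM in V-ZHYS, against 12.6, 10.5 and 13 TPM in E-ZHYS, with a difference of -4.67 ± 0.48. LOC100248930, which carries the name BAP1, had 0.98 to 1.08 TPM in V-ZHYS, against 12.5 to 19 TPM in E-ZHYS, with a difference of -4.31 ± 0.37. The stages did not overlap in these genes, and M-ZHYS had 81.3 to 101 TPM of WKRY, 9.17 to 11.8 TPM of LOC100263939 and 14.1 to 19 TPM of LOC100248930. LOC100260128, LOC104881856 and LOC100852930 had 0.9 to 1.9, 3.75 to 4.21 and 0.38 to 1.14 TPM in V-ZHYS, against 22 to 25.5, 23.1 to 31.6 and 40.1 to 70.2 TPM in E-ZHYS, with differences of -4.12, -3.93 and -3.86. The E-ZHYS mean of each of these 6 genes was above the E means of all 4 zones. They were named for their negative differences, which favors a high E-ZHYS mean, so this is not separate evidence.

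**Figure D5:**
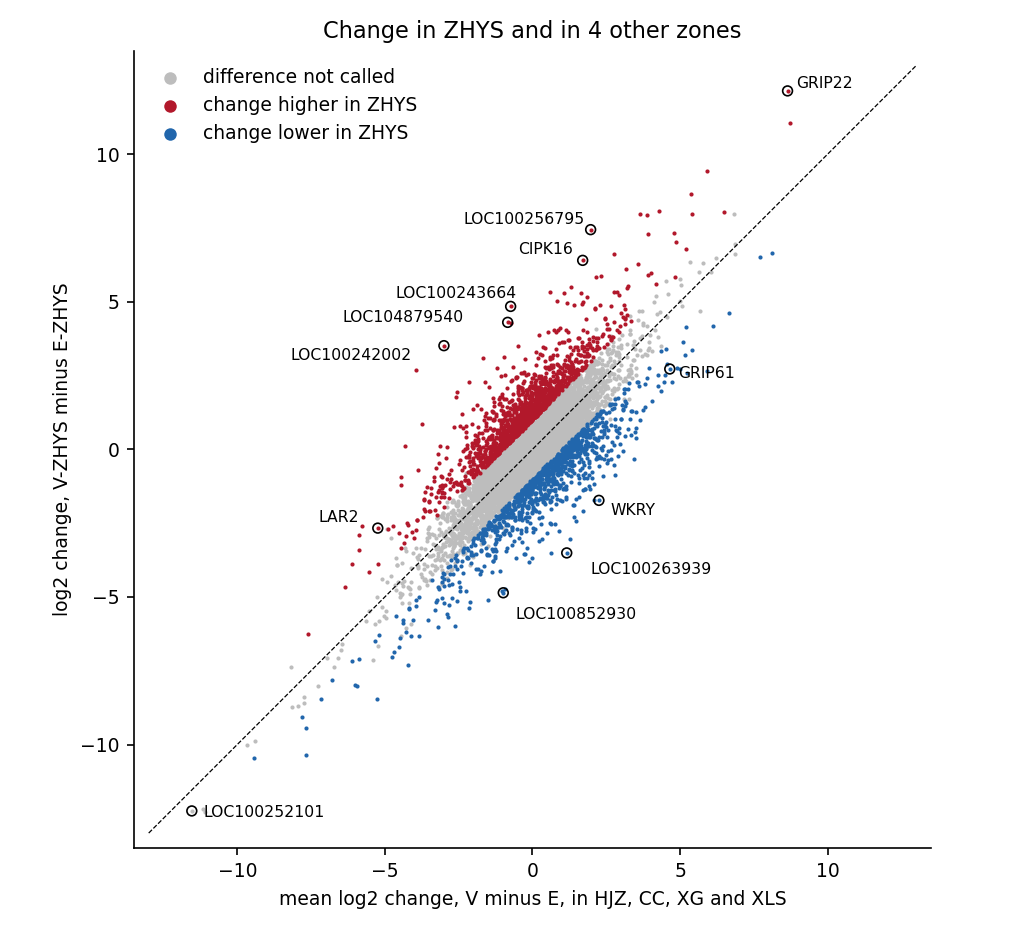
Log2 change in ZHYS (V-ZHYS minus E-ZHYS, of TPM + 1) against the mean log2 change, V minus E, of HJZ, CC, XG and XLS, 1 point per gene, with a dashed line where both are equal. Red marks the 1472 genes whose change was higher in ZHYS and blue the 1016 genes whose change was lower, and LOC100243664, LOC104879540 and LOC100242002 lie above 0 in ZHYS and below 0 in the mean of the 4 zones.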

How the data were processed

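RNA was sequenced on an Illumina HiSeq-2000, and the submitters' processing notes name HISAT2 and featureCounts, without versions. The methods link the V. vinifera reference to an Ensembl Plants release, while the numeric IDs of the table matched NCBI gene IDs. The name of the genome build, strandedness and treatment of reads with several matches were not given in the sources used here. The authors deposited 1 table of TPM values for 25133 gene IDs in 54 libraries. TPM keeps no sequencing depth, so the depth per library is unknown and no counting error could be given. RefSeq's gene table (ASM3070453v1) gave symbols for 23256 of these IDs, and of its positions only chromosomes and gene order were used.

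TPM + 1 was log2-transformed, and a model with a mean for each of the 18 groups was fitted with limma 3.58.1 (R 4.3.3) to all 54 libraries (36 residual degrees of freedom), so that the groups share 1 estimate of the spread. Genes at 0 in every library were left out (24648 tested). V-ZHYS minus E-ZHYS and the difference between this change and the mean change of HJZ, CC, XG and XLS were contrasts of this fit, and p-values were adjusted by Benjamini-Hochberg over all genes tested. DEGs had an adjusted p below 0.05 and an absolute log2 change above 1. The fit was tested on simulated data. Tables and figures used Python 3.11.15, numpy 2.4.6, pandas 2.3.3 and matplotlib 3.10.9.

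The alternatives were a pseudocount of 0.1, a mean of at least 1 TPM, median-of-ratios factors from 16546 genes, quantile normalization, the 6 libraries alone, unadjusted p, the replicate number as a block, other sets of zones, and each library left out in turn. Named genes were the 10 largest rises and 10 largest falls with the same call under both scalings and no overlap, in each list the 2 largest called changes in each direction and the most abundant member, the 6 largest differences from the 4 zones in each direction, and the 5 most abundant genes per stage. The comparison and the lists were chosen with earlier results of these data known. Lists were made from gene symbols, because the table holds no product names, so tissue markers are few. Promoter sequences were not analysed here, and 1 called gene of the hormone lists is not reported here.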

Additional observations from a re-analysis of the deposited data

Results flagged for a closer look

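The change between color transition and enlargement differed between ZHYS and the mean of HJZ, CC, XG and XLS, by the limma contrast of the difference itself, for 1472 genes with a higher change in ZHYS and 1016 genes with a lower change. The genes with the largest positive differences on the log2 scale were ID100852449 (6.62), LOC100242002 (6.52), LOC100243664 (5.58), LOC100256795 (5.47), LOC104879540 (5.13) and ID104879541 (5.02). Of these, ID100852449 had V-ZHYS values between 0.87 and 28.5 TPM and fell in the 4 zones (log2 changes between -4.85 and -3.17). LOC100256795 changed in opposite directions in HJZ and CC. The largest negative differences were those of LOC100263939 (-4.67), LOC100248930 (-4.31), LOC100260128 (-4.12), WKRY (-3.98), LOC104881856 (-3.93) and LOC100852930 (-3.86), and all 6 had a higher mean in E-ZHYS than in the E group of any of the 4 zones. The choice of genes by a negative difference favors a high E-ZHYS mean. Zones differ in site, and the labels give no batch, so zone and handling cannot be told apart.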

How the results depend on the processing

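With a pseudocount of 0.1, 7628 genes were called between V-ZHYS and E-ZHYS, of which 3566 were higher and 4062 lower, and the difference from the 4 zones was called for 4362 genes, 2478 higher and 1884 lower in ZHYS. The difference of LOC100853472 then changed sign, to 0.04 from -1.48, with an adjusted p of 0.961. The other alternatives left the counts within 1.5 times of the main ones, with 2573 and 2293 genes higher and lower by unadjusted p, 2323 and 2438 after quantile normalization, 2507 and 2071 with a mean of at least 1 TPM and 2542 and 2216 in a fit of the 6 libraries. Leaving out 1 library gave 4752 to 5026 DEGs, 2407 to 2814 higher and 2196 to 2378 lower, and 2405 to 2666 genes with a different change, 1376 to 1661 higher and 933 to 1175 lower in ZHYS.

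Libraries with the same replicate number did not deviate together (correlations of deviations from the group means of -0.137, -0.018 and -0.253). With 3 libraries per group these values cannot settle whether the numbers pair the samples. With the replicate block 2557 genes were higher and 2289 lower, and the difference was called for 1477 and 1014 genes. Against all 5 other zones these were 1465 and 1110 genes, and without XLS 1302 and 1137. Among genes that were named or belonged to a list, 108 of 136 with a called change between the stages kept that call under every alternative run and 0 reversed, and 70 of 93 with a called difference from the 4 zones kept it and 1 reversed. The unknown depth limits all statements on genes below a few TPM.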
